A study of Homo sapiens with 8 samples.

Results

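Chromosome 13 is an acrocentric chromosome whose protein-coding genes lie on the long arm, and 55 of them, from ZMYM2 near the centromere to UPF3A near the end of the arm, were followed here through 8 RNA libraries. The 55 members were picked as genes spread along the chromosome, with the difference between the 2 hairpin labels already known, so that difference is described below and carries no test. All 55 were among the 19583 rows of the table, which held 309 further genes that the reference places on chromosome 13. Every member passed the filter on low values, which asked for a mean of 1 or more normalised reads over the 8 libraries.

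The cells were MDA-MB-231, a human breast cancer line, with a scrambled short hairpin RNA (shSC) or with the label of a CHD4 hairpin (shCHD4). CHD4 is the chromatin-remodelling ATPase of the NuRD complex. Each was kept at 20% or 1% O2 for 24 hours, giving 4 groups of 2 libraries. All groups grew in the same medium with serum. The labels do not say whether the hairpin cells were 1 clone or a pool, how many hairpins were used, or whether replicate libraries were made from different cultures. The p-values therefore measure spread from library to library, and that spread may be only technical. The values used here are of RNA only. In bulk RNA, a change in the level per cell and a change in the share of cells with that level cannot be told apart.

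Chromosome 13 carries RB1, the retinoblastoma gene, whose protein holds back entry into the cell cycle until cyclin-dependent kinases release it. It also carries genes that act on both sides of that switch, such as TFDP1, the partner of the E2F factors that RB1 restrains, and CUL4A, the scaffold of a ubiquitin ligase. The members otherwise share no pathway. They include transcription factors, RNA-processing subunits, chaperones, ciliary proteins and metabolic enzymes, and low oxygen is known to act on single genes through transcription factors such as the hypoxia-inducible factors.

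The libraries held 24947627 to 31903585 gene-assigned reads each. Between 134299 and 264532 of these reads per library came from the 55 members, and the least counted member, KBTBD7, had at least 41. CHD4 itself did not go with its label. Its normalised read counts were 299 and 298 under shSC and 293 and 305 under shCHD4 at 20% O2, and 280, 278, 299 and 287 in the same order at 1% O2. Every difference between labels below is therefore one between libraries with those labels. As a check of the line, the mesenchymal marker VIM stood at 3471 to 6856, while the estrogen receptor gene ESR1 had 1 to 4 reads per library and the progesterone receptor gene PGR 0 to 3. The receptor gene ERBB2 was detected, at 35.0 to 54.1 (980 to 1574 reads), and the epithelial marker EPCAM stood at 4.17 to 7.56 (121 to 225 reads).

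The 55 members together took a larger share of the reads under the shCHD4 label. Their summed share was 5.43 ± 0.0672 per 1000 reads (SD, n = 2) in shSC at 20% O2 and 5.37 ± 0.0211 in shSC at 1% O2. It was 9.03 ± 0.0499 in the shCHD4 libraries at 20% O2 and 9.28 ± 0.129 at 1% O2. All 4 shCHD4 libraries, at 8.99 to 9.37, lay above all 4 shSC libraries, at 5.35 to 5.48, whereas the O2 level moved the share by less than 0.3 per 1000.

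Member by member, 47 of 55 were higher under the shCHD4 label and 8 lower at 20% O2, with the same 47 to 8 split at 1% O2. On the log2(value + 0.5) scale the median difference between labels was 0.75 at 20% O2 and 0.74 at 1% O2, against -0.01 at either O2 level over all 12645 genes tested. Averaged over both O2 levels, the median was 0.75, a 1.68-fold difference, with quartiles of 0.31 and 1.02. The sign was the same at both O2 levels in 53 members. The members were chosen with the label difference known, so this agreement is no added support, and it was not counted over all genes. In 43 members every shCHD4 library exceeded every shSC library (32.8% of all genes tested did so), and in 4 every shCHD4 library lay below (34.4% of all genes). By the same fit 45 members were called higher and 5 lower at 20% O2 (background 37.0% and 38.6% of all genes, 75.6% in either direction), and 45 and 4 at 1% O2 (background 38.2% and 39.2%, together 77.4%). Because the members were chosen on this contrast, those counts describe the choice. The heat map of the members shows the step between labels in most members and the exceptions.

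**Figure D1:**
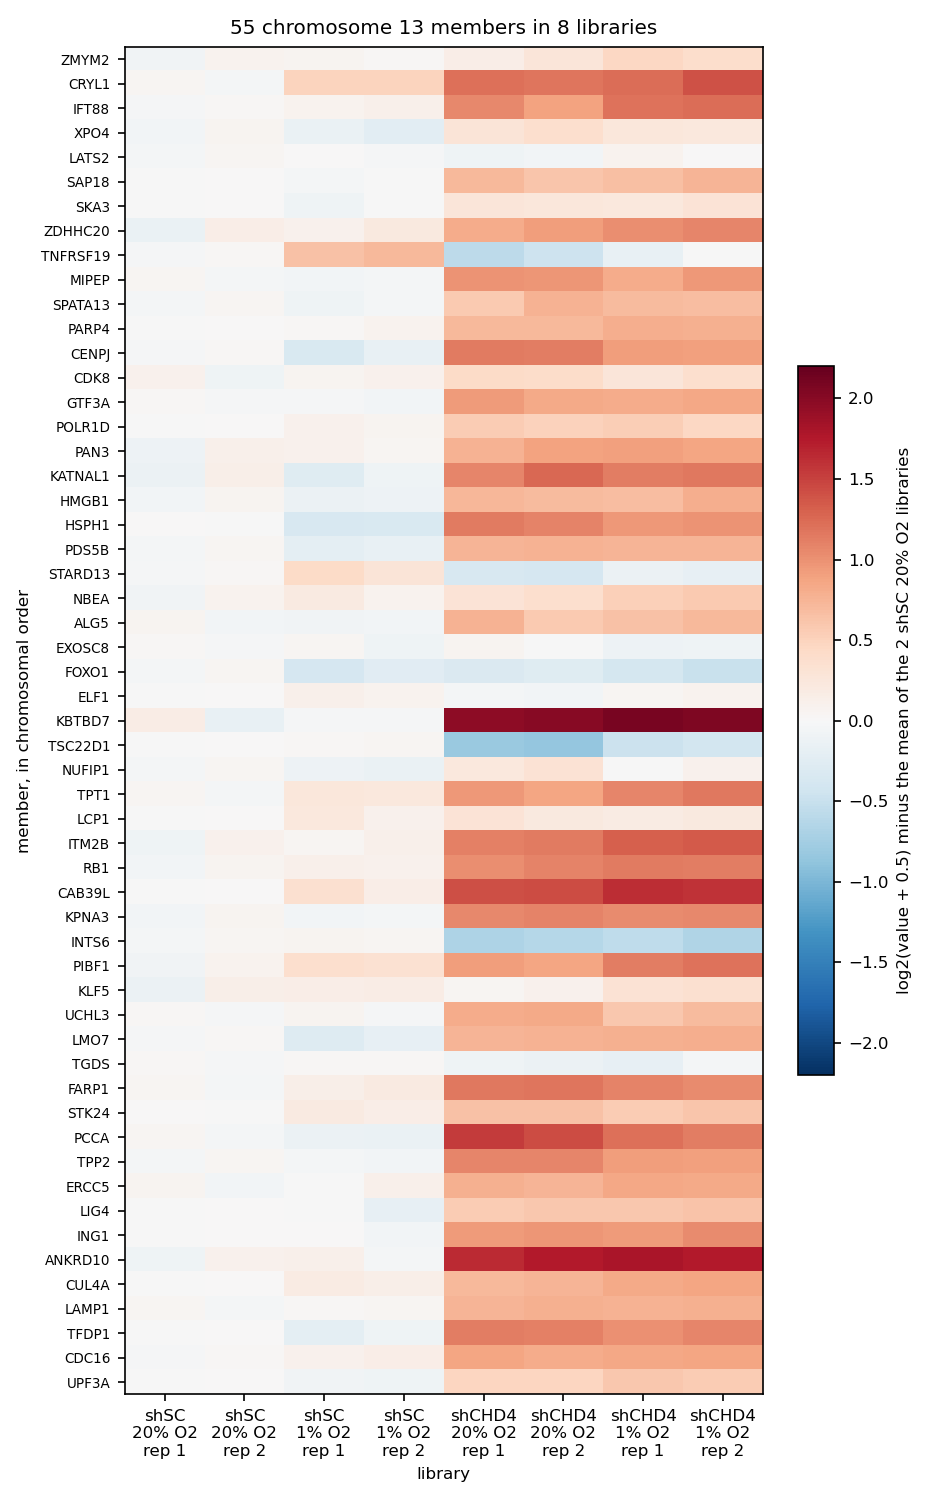
Heat map of the 55 members (rows, in chromosomal order) in the 8 libraries (columns); colour is log2(value + 0.5) minus the mean of the 2 shSC 20% O2 libraries. The 4 shCHD4 columns are redder in most rows and bluer in rows such as TSC22D1, INTS6 and FOXO1. TNFRSF19 and STARD13 are bluer in the shCHD4 columns at 20% O2 and pale in those at 1% O2.

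The size of the step was far from equal among members. Of the 55, 35 lay between 0.5 and 1.5 on the log2 scale, 2 lay above 1.5, and 14 lay below 0.3. KBTBD7, an adaptor of the cullin-3 ubiquitin ligase, had the largest step. Its normalised read counts were 2.03 and 1.52 in shSC at 20% O2, 1.72 and 1.71 in shSC at 1% O2, 8.38 and 8.59 in shCHD4 at 20% O2, and 9.10 and 8.91 in shCHD4 at 1% O2. That is a mean log2 difference of 2.05, or 4.13-fold, which the pseudocount of 0.5 understates at such low values. ANKRD10, an ankyrin-repeat gene, followed at 1.71, with 11.8, 13.5, 13.7 and 12.3 over the shSC libraries (20% O2, then 1% O2, as in the lists that follow) and 40.2, 43.5, 45.0 and 43.3 over the shCHD4 libraries. Neither pair of label groups came close to overlapping.

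PCCA, which encodes a subunit of the mitochondrial propionyl-CoA carboxylase, was 2.63-fold higher, at 5.42, 5.12, 4.79 and 4.70 under shSC and 16.2, 15.1, 12.8 and 12.1 under shCHD4. CAB39L, a scaffold of the LKB1 kinase, was also 2.63-fold higher, at 6.58, 6.65, 8.54 and 7.39 under shSC and 18.4, 18.7, 21.5 and 20.97 under shCHD4. KATNAL1, a microtubule-severing ATPase, stood at 24.1, 29.0, 21.9 and 24.8 under shSC and 56.1, 64.0, 58.3 and 59.9 under shCHD4, a 2.37-fold difference. In these 3 genes too the lowest shCHD4 library was above the highest shSC library.

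RB1 stood at about double the level under the shCHD4 label. Its normalised read counts were 152 and 167 in shSC at 20% O2 and 171 and 170 in shSC at 1% O2. They were 325 and 339 in shCHD4 at 20% O2 and 351 and 348 in shCHD4 at 1% O2, a 2.06-fold mean difference. TPT1, the translationally controlled tumour protein and the member with the highest count, was at 816, 776, 941 and 935 under shSC and 1546, 1450.5, 1685 and 1770.1 under shCHD4. HMGB1, an abundant chromatin protein that also signals when released, was at 456, 496, 433 and 439 under shSC and 793, 769, 762 and 823 under shCHD4. In both genes all shCHD4 libraries were above all shSC libraries. RefSeq lists 14 pseudogenes named after TPT1 and 50 after HMGB1, and no source used here names the annotation behind the counts, so how reads from such copies were assigned is uncertain.

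The other 9 members had a mean difference below 0. INTS6, a subunit of the Integrator complex that processes small nuclear RNAs, was lower under shCHD4, with 110, 116, 118 and 116 over the shSC libraries and 69.8, 72.9, 76.5 and 70.9 over the shCHD4 libraries, 1.58-fold lower. TSC22D1, a leucine-zipper factor induced by TGF-beta, was at 592, 597, 605 and 613 under shSC and at 337, 331, 430 and 449 under shCHD4, 1.57-fold lower. The TNF-receptor family member TNFRSF19 was 1.56-fold lower and STARD13 1.35-fold lower. FOXO1, a transcription factor held out of the nucleus by insulin signalling, was at 23.0, 24.2, 18.1 and 19.8 under shSC and 18.8, 19.6, 17.9 and 16.6 under shCHD4. With the O2 levels pooled, the label groups of INTS6, TSC22D1 and STARD13 did not overlap, and those of TNFRSF19 and FOXO1 did. Within each O2 level, the shCHD4 libraries of TNFRSF19 and FOXO1 lay below the shSC libraries. For FOXO1 at 1% O2 the nearest values were 17.9 under shCHD4 and 18.1 under shSC.

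LATS2, a kinase of the Hippo pathway, was level between labels, with 77.3, 82.9, 81.0 and 78.9 under shSC and 75.3, 76.6, 84.1 and 80.6 under shCHD4. EXOSC8, a subunit of the RNA exosome, ELF1, an ETS-family factor, and TGDS had mean log2 differences of -0.03, -0.05 and -0.13. CDK8, the kinase of the Mediator complex, had a small step of 0.32, with 20.3, 17.9, 20.0 and 20.4 under shSC and 25.7, 25.4, 23.0 and 24.7 under shCHD4.

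**Figure D2:**
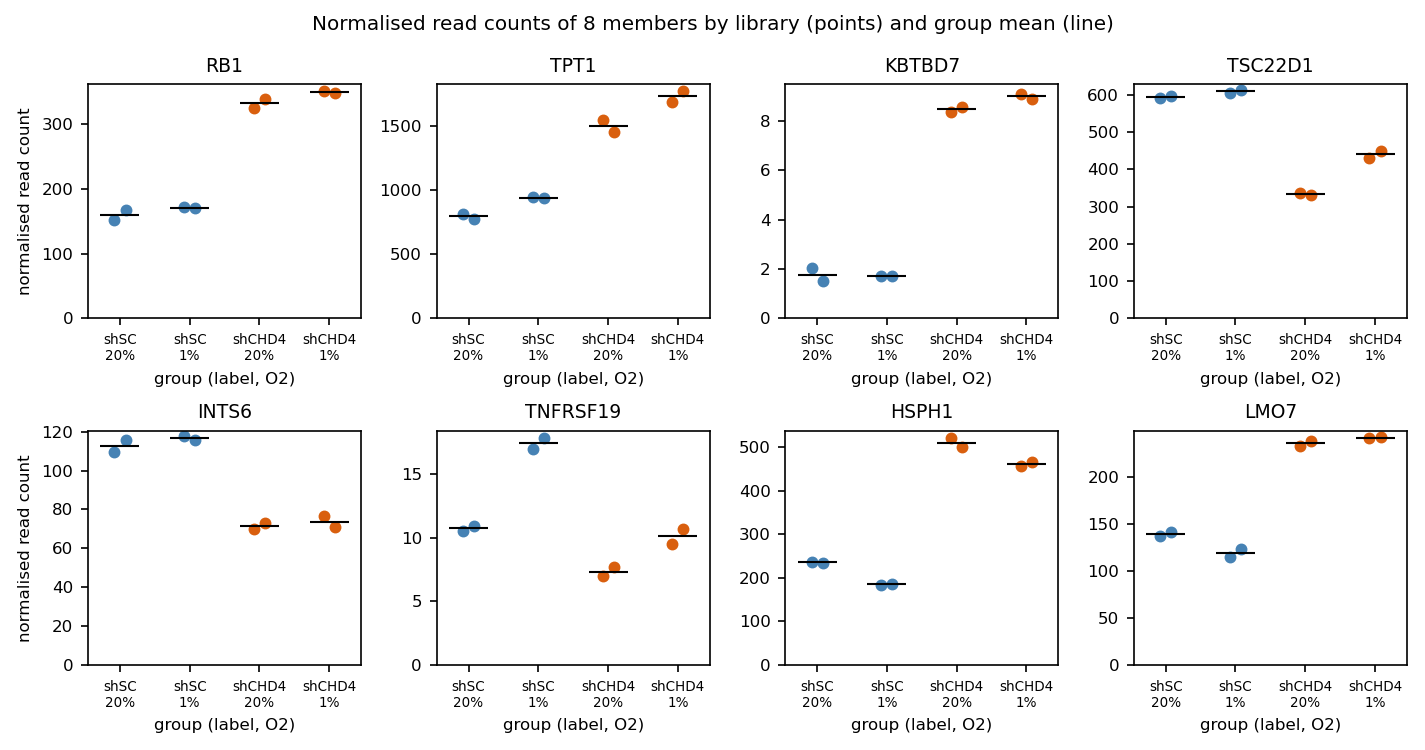
Normalised read counts (vertical axes, each from 0) of 8 members in each library (points) with the mean of the 2 libraries (line), by label and O2 level. RB1, TPT1, KBTBD7, HSPH1 and LMO7 sit higher in both shCHD4 groups, and TSC22D1 and INTS6 lower, while TNFRSF19 differs with both label and O2.

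Grouped by role, the step was largest among the 7 genes of protein folding, turnover and nuclear transport, with a median of 0.96 and no member below 0.38. HSPH1, the HSP110 partner of HSP70 chaperones, led this group at 1.21, with 520.3 and 501 at 20% O2 and 457 and 467 at 1% O2 under shCHD4 against 237, 234, 184 and 187 under shSC, and the exportin gene XPO4 had its smallest value. The 10 cell cycle and division genes had a median of 0.82. TFDP1 and CENPJ, a centriole assembly gene, were highest there at 1.15 each, and LATS2 was lowest.

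The 4 metabolic genes had a median of 0.86, with the glucosyltransferase gene ALG5, their most counted member, at 0.71. ALG5 stood at 26.2, 24.3, 24.0 and 24.3 under shSC and 43.3, 38.0, 39.8 and 41.7 under shCHD4. The 7 genes of kinase signalling, membranes and trafficking had a median of 0.75, which was also the value of LAMP1, the lysosomal membrane protein, at 294, 279, 293 and 297 under shSC and 484, 493, 487 and 491 under shCHD4. The 3 genes of DNA repair and the PARP family were close together, LIG4 at 0.64, PARP4 at 0.72 and ERCC5 at 0.78. LIG4 joins broken ends, and ERCC5 encodes the XPG endonuclease of nucleotide excision repair. PARP4, the vault-associated PARP, was at 223, 227, 230.4 and 237 under shSC and 372, 368, 390.4 and 387 under shCHD4. The 8 genes of RNA synthesis, processing and decay had a median of 0.52, with the TFIIIA gene GTF3A highest at 0.88. SAP18, a subunit of Sin3 and splicing complexes and the most counted of them, had a step of 0.69, with 91.7, 93.4, 90.01 and 91.4 under shSC and 152, 142, 146 and 155 under shCHD4. The 8 transcription factors and co-regulators had the lowest median, 0.21, and the widest range, from TSC22D1 at -0.65 to KBTBD7, a ubiquitin ligase adaptor placed in this list. No group was tested against another.

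Along the chromosome the median step was similar in successive sets of members, but the step was not even. The first 18 members, ZMYM2 to KATNAL1, had a median of 0.72, the next 18, HMGB1 to KPNA3, 0.75, and the last 19, INTS6 to UPF3A, 0.78. Over all 229 tested genes of the chromosome in reference order, the running median of 21 genes stayed above 0, from 0.22 around FREM2 to 1.02 around ITM2B. At its lowest the running median was below the median of all tested genes on chromosome 6 (0.26). The same lowest value was reached around each tested gene from FREM2 to COG6. The window around FREM2 holds 4 members, EXOSC8, FOXO1 and ELF1 below 0 and ALG5 at 0.71. Those around NHLRC3, LHFP and COG6 also hold KBTBD7, at 2.05. Of the middle 18 members 5 were below 0, against 2 of the first 18 and 2 of the last 19. The order of the members' rows in the table matched the reference in all 54 neighbouring pairs.

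Single exceptions stood between genes that carried the step. LATS2 (-0.02) lay between XPO4 (0.38) and SAP18 (0.69). INTS6 (-0.66) had FAM124A (1.11) and WDFY2 (0.56) as its nearest tested neighbours, and STARD13 (-0.43) had PDS5B (0.85) and RFC3 (0.89). EXOSC8 (-0.03) lay beside ALG5 (0.71) and SUPT20H (0.16). TGDS (-0.13) lay between GPC6 (0.86) and GPR180 (1.08). TSC22D1 (-0.65) lay beside LACC1, which was also lower (-0.59), and NUFIP1 (0.22), a factor in the assembly of small nucleolar RNA particles.

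**Figure D3:**
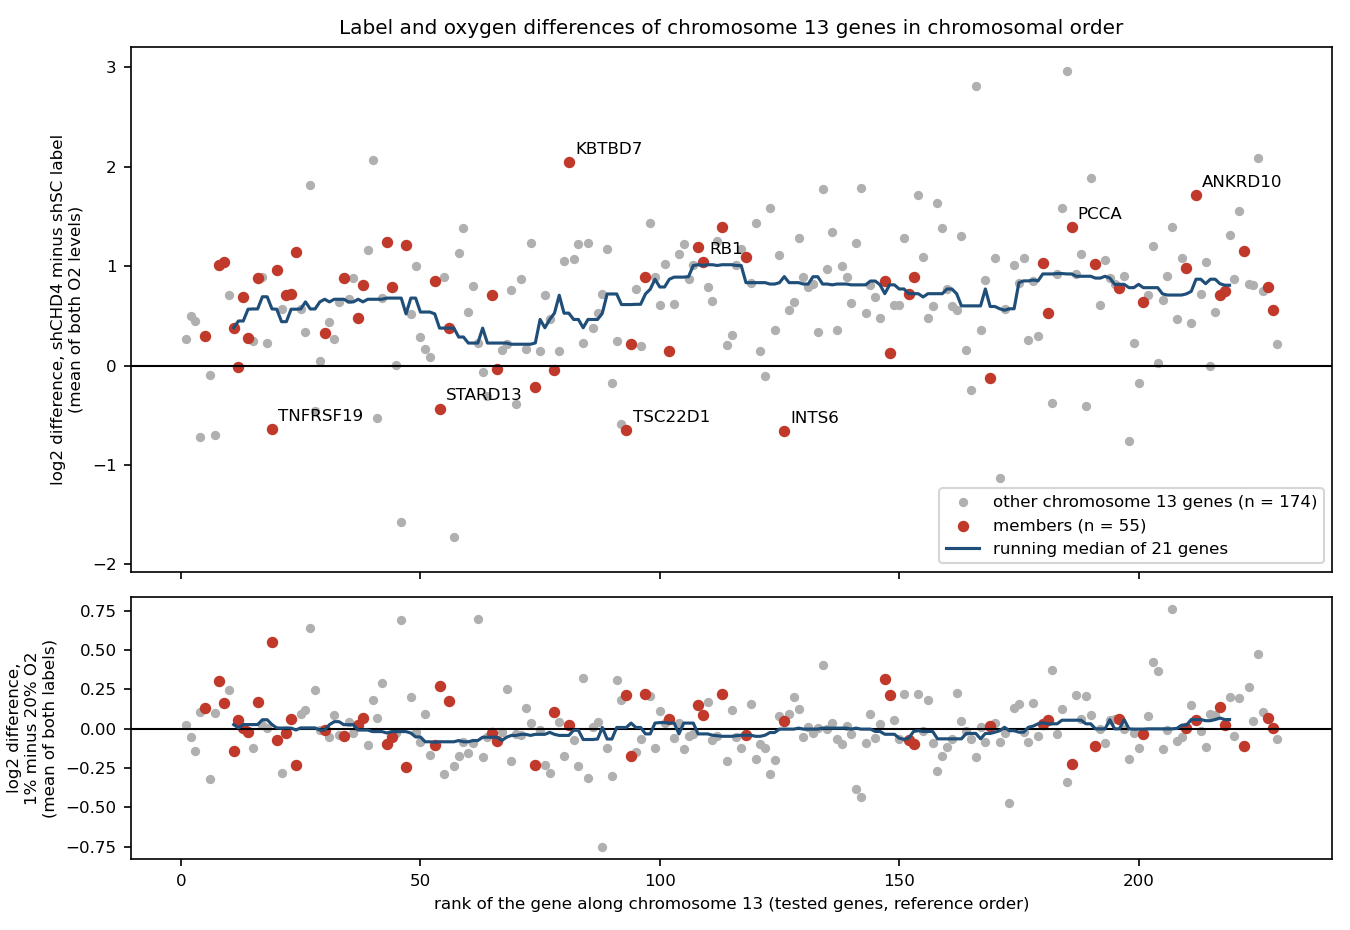
Mean log2 difference between labels (upper panel) and between O2 levels (lower panel, its own scale) for 229 tested chromosome 13 genes by rank along the chromosome. Members are red, other genes grey, and the line is the running median of 21 genes, which stays between 0.22 and 1.02 above and between -0.09 and 0.07 below.

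Genes that share a start region could be compared as pairs. In RefSeq's promoter table (GRCh38.p14), which gives 300 bases per start site, 10 members had a window overlapping that of a tested gene on the other strand. All 10 partners were higher under the shCHD4 label, but so were 87.9% of the 174 other chromosome 13 genes tested, to which the partners belong. In 4 of the 10 pairs the 2 genes differed by less than 0.3, which was not compared with other neighbouring genes. SKA3, a kinetochore gene, and MRP63, a mitochondrial ribosomal protein gene, had nearly the same small step, 0.28 and 0.25. LIG4 and ABHD13 had 0.64 and 0.71. The pair of UCHL3, a ubiquitin hydrolase gene, and COMMD6 differed more, at 0.72 and 1.29, as did NUFIP1 at 0.22 and KIAA1704 at 0.77. No source used here says whether the counting used strand, so reads near a shared or antisense start cannot be assigned to 1 strand.

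The members were no exception within their chromosome. Of the 174 other chromosome 13 genes tested, 153 were higher under the shCHD4 label, with a median of 0.70, and 134 had every shCHD4 library above every shSC library. Their summed share of reads was 8.20 ± 0.160 and 7.96 ± 0.0814 per 1000 under shSC and 12.8 ± 0.0691 and 12.9 ± 0.0529 under shCHD4 (SD, n = 2, at 20% and 1% O2). Among 145 of them with a mean of at least 5, the neural transcription factor gene ZIC2 had the largest step, from 8.11 to 12.2 under shSC to 73.9 to 85.1 under shCHD4. SLITRK5, a neuronal membrane protein gene, went from 1.32 to 2.36 to 15.9 to 17.3, and SLC46A3, a lysosomal transporter gene, from 8.77 to 11.1 to 37.6 to 45.0. The lowest were DCLK1, a microtubule-associated kinase gene (-1.73), EFNB2, an ephrin ligand gene (-0.75), and ZMYM5 (-0.72), which lies next to the member ZMYM2 (0.30).

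Across the other 22 chromosomes the median difference between labels ran from -0.32 on chromosome 8 to 0.26 on chromosome 6, while chromosome 13 stood at 0.71 with 86.9% of its tested genes higher. On the others 33.4% to 67.4% were higher. The medians for 1% against 20% O2 spanned a much smaller range, from -0.03 to 0.03 under shSC and from -0.04 to 0.04 under shCHD4, and chromosome 13 lay within both, at -0.03 and 0.03. These medians are descriptions, and the difference between chromosomes was not tested. Chromosome 13 was followed with the label difference of its members already known, so its place among the chromosomes is no separate result.

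**Figure D4:**
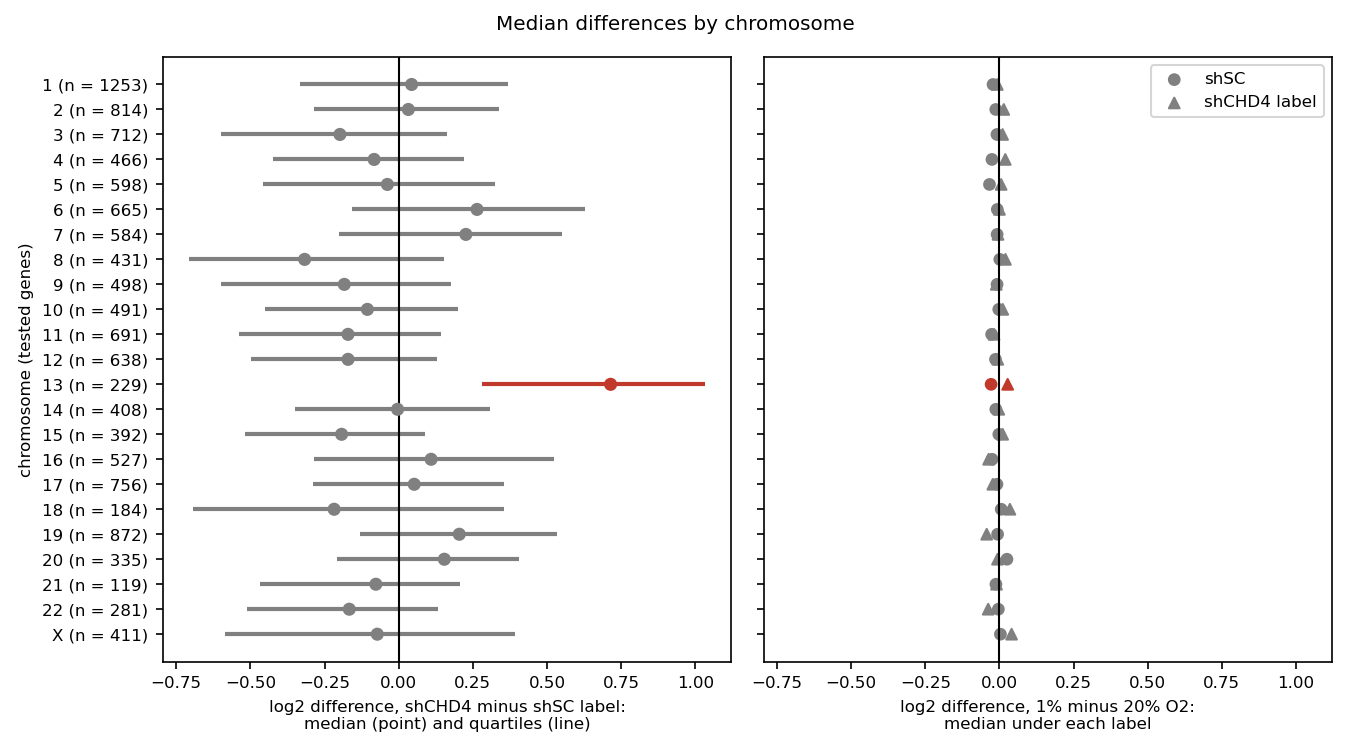
Median log2 difference per chromosome over its tested genes, between labels (left, points with quartile lines) and between 1% and 20% O2 under each label (right, same scale). Chromosome 13, in red, has a label median of 0.71 against -0.32 to 0.26 elsewhere, and O2 medians of -0.03 and 0.03.

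Low oxygen changed single members by small amounts in both directions. Under shSC, 10 of 55 members rose and 8 fell at 1% O2, that is 18.2% and 14.5%, beside 17.4% and 17.9% of all genes tested (35.2% in either direction). The median over the members was 0.03, against -0.01 over all genes. No member changed 2-fold under either label. The comparisons of O2 under shSC and of labels at 20% O2 share the shSC 20% libraries, so their values are only set side by side.

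TNFRSF19 had the largest rise, from 10.6 and 10.9 at 20% O2 to 17.0 and 17.8 at 1% O2. This was 1.59-fold, a log2 change of 0.67 with a standard error of 0.0918 and adjusted p = 2.03e-05. CRYL1, a dehydrogenase of sugar acid metabolism, rose from 5.71 and 5.31 to 7.90 and 7.93, 1.40-fold (adjusted p = 0.00055), and had 13.5 and 13.1 against 13.6 and 15.3 under the shCHD4 label. PIBF1, a gene of centriolar satellites and cilia, rose from 21.1 and 23.9 to 29.1 and 28.6, 1.28-fold (adjusted p = 0.000479). STARD13 rose from 75.5 and 78.1 to 103 and 93.0, 1.27-fold (adjusted p = 8.61e-05). In none of these 4 genes did the O2 groups overlap, but they were picked as the largest called rises, so this is no added support.

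HSPH1 had the clearest fall under shSC. Its values went from 237 and 234 at 20% O2 to 184 and 187 at 1% O2, 1.27-fold lower, with a log2 change of -0.35 and adjusted p = 3.89e-06. FOXO1 fell from 23.0 and 24.2 to 18.1 and 19.8, 1.24-fold (adjusted p = 0.00408). CENPJ fell from 20.2 and 21.1 to 16.3 and 18.4, 1.19-fold (adjusted p = 0.00906). LMO7, a LIM-domain protein of cell junctions, fell from 137 and 142 to 115 and 123, 1.17-fold (adjusted p = 0.00073). Leaving out shSC 1% O2 replicate 1 ended the FOXO1 call (adjusted p = 0.0583) and the CENPJ call (adjusted p = 0.129), and 3 members fell in place of 8. Without shSC 1% O2 replicate 2 the number that fell was 6, and without shSC 20% O2 replicate 2 it was 5.

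The remaining calls under shSC were smaller. TPT1 rose by 0.24, STK24, a kinase of the MST family, by 0.17, CUL4A by 0.16, FARP1 by 0.16, CAB39L by 0.25 and LCP1, the actin bundler L-plastin, by 0.17 on the log2 scale. XPO4 fell by 0.19, the cohesin regulator PDS5B by 0.19, TFDP1 by 0.15 and HMGB1 by 0.13. HMGB1 was at the threshold (adjusted p = 0.0494). Of these 10 calls, those of TPT1 and STK24 held under every alternative, and the other 8 ended without single libraries. Without shSC 1% O2 replicate 1, CAB39L was at 0.15 (adjusted p = 0.285), LCP1 at 0.10 (0.299), CUL4A at 0.13 (0.0738), TFDP1 at -0.10 (0.189), PDS5B at -0.16 (0.0673) and HMGB1 at -0.12 (0.168). Without shSC 20% O2 replicate 2, HMGB1 was at -0.07 (adjusted p = 0.362), XPO4 at -0.13 (0.101), FARP1 at 0.11 (0.139), PDS5B at -0.15 (0.0512), CAB39L at 0.26 (0.0725) and LCP1 at 0.18 (0.0603). XPO4 (0.0941), FARP1 (0.142) and HMGB1 (0.0981) also ended without shSC 1% O2 replicate 2, and CAB39L (0.0924) and LCP1 (0.0942) without shSC 20% O2 replicate 1. The HMGB1 call also ended without any 1 shCHD4 library (adjusted p = 0.0563 to 0.0574), and those of CAB39L and LCP1 without either shCHD4 1% O2 library (0.0515 to 0.0527).

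RB1 differed by 0.10 under shSC (adjusted p = 0.109) and did pass without shSC 20% O2 replicate 2 (0.17, adjusted p = 0.0114). Under the shCHD4 label RB1 differed by 0.07 (adjusted p = 0.268). PARP4 differed by 0.05 and 0.07 (adjusted p = 0.339 and 0.214).

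Under the shCHD4 label 9 members rose and 6 fell at 1% O2, or 16.4% and 10.9%, beside 12.3% and 10.7% of all genes (23.0% in either direction). TNFRSF19 was again the largest rise, from 7.00 and 7.69 to 9.48 and 10.7, 1.35-fold (adjusted p = 0.00255). TSC22D1 rose from 337 and 331 to 430 and 449, 1.31-fold (adjusted p = 1.19e-06). PIBF1 rose from 43.0 and 41.3 to 49.8 and 52.3, 1.21-fold (adjusted p = 0.0067). Leaving out shCHD4 1% O2 replicate 2 ended both the TNFRSF19 call (adjusted p = 0.0559) and the PIBF1 call (adjusted p = 0.0862), and PIBF1 also did not pass without shCHD4 20% O2 replicate 2 (adjusted p = 0.0588).

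The falls under this label were led by PCCA, from 16.2 and 15.1 to 12.8 and 12.1, 1.24-fold lower (adjusted p = 0.0223). NUFIP1, at 30.2, 32.0, 28.9 and 28.1 under shSC, fell from 36.5 and 38.7 to 30.8 and 33.3 (adjusted p = 0.0189) and CENPJ from 46.1 and 45.6 to 39.7 and 39.0 (adjusted p = 0.0296). All 3 falls ended without shCHD4 1% O2 replicate 1 (adjusted p = 0.0766, 0.207 and 0.12). PCCA and CENPJ also ended without shCHD4 1% O2 replicate 2 (0.157 and 0.151) and without shCHD4 20% O2 replicate 1 (0.184 and 0.149), NUFIP1 and CENPJ without shCHD4 20% O2 replicate 2 (0.141 and 0.0949), and all 3 with DESeq2 (adjusted p = 0.09, 0.0533 and 0.0588).

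The count of 9 rises became 1 without shCHD4 1% O2 replicate 2 and 5 without either shCHD4 20% O2 library. The count of 6 falls became 0, 2, 1 and 2 without shCHD4 1% O2 replicates 1 and 2 and 20% O2 replicates 1 and 2. The other members that passed were ZMYM2, a zinc-finger co-repressor gene (0.22), the ciliary transport gene IFT88 (0.24), STARD13 (0.20), TPT1 (0.21), the membrane protein gene ITM2B (0.22) and the Krüppel-like factor gene KLF5 (0.27) among the rises. STARD13 went from 60.2 and 59.5 to 69.8 and 67.5. Among the falls they were HSPH1 (-0.14), UCHL3 (-0.17) and the peptidase gene TPP2 (-0.17). Leaving out shCHD4 20% O2 replicate 1 ended the calls of ZMYM2, ITM2B, KLF5, UCHL3 and TPP2 (adjusted p = 0.0585 to 0.204), and leaving out 20% O2 replicate 2 those of UCHL3, TPP2 and IFT88, which went to 0.15 (adjusted p = 0.0539 to 0.289). Leaving out 1% O2 replicate 1 ended ZMYM2, IFT88, UCHL3 and TPP2 (adjusted p = 0.064 to 0.274), and 1% O2 replicate 2 ended ZMYM2, IFT88, ITM2B, KLF5 and TPP2 (adjusted p = 0.0542 to 0.186).

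Between the labels, 6 members (10.9%) passed in the same direction under both, beside 15.0% of all genes tested, and none in opposite directions, beside 0.316%. TNFRSF19, STARD13, TPT1 and PIBF1 rose under both, and CENPJ and HSPH1 fell under both. These comparisons share no library, but the fit gives each gene 1 estimate of the spread, so their p-values are not independent. Under the shCHD4 label the STARD13 call ended without any 1 of the 4 shCHD4 libraries (adjusted p = 0.0534 to 0.136). That of TPT1 ended without shCHD4 20% O2 replicate 2 (0.0552) or 1% O2 replicate 2 (0.0737), and with quantile normalization, which took the difference from 0.21 to 0.10 (0.0705). That of HSPH1 ended without shCHD4 20% O2 replicate 1 (0.17) or 1% O2 replicate 1 (0.158) or 2 (0.0745). Another 28 members (50.9%) passed under neither label, beside 57.1% of all genes, and 37 of 55 had the same sign. The plot of the oxygen response shows that most intervals cross or touch 0.

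**Figure D5:**
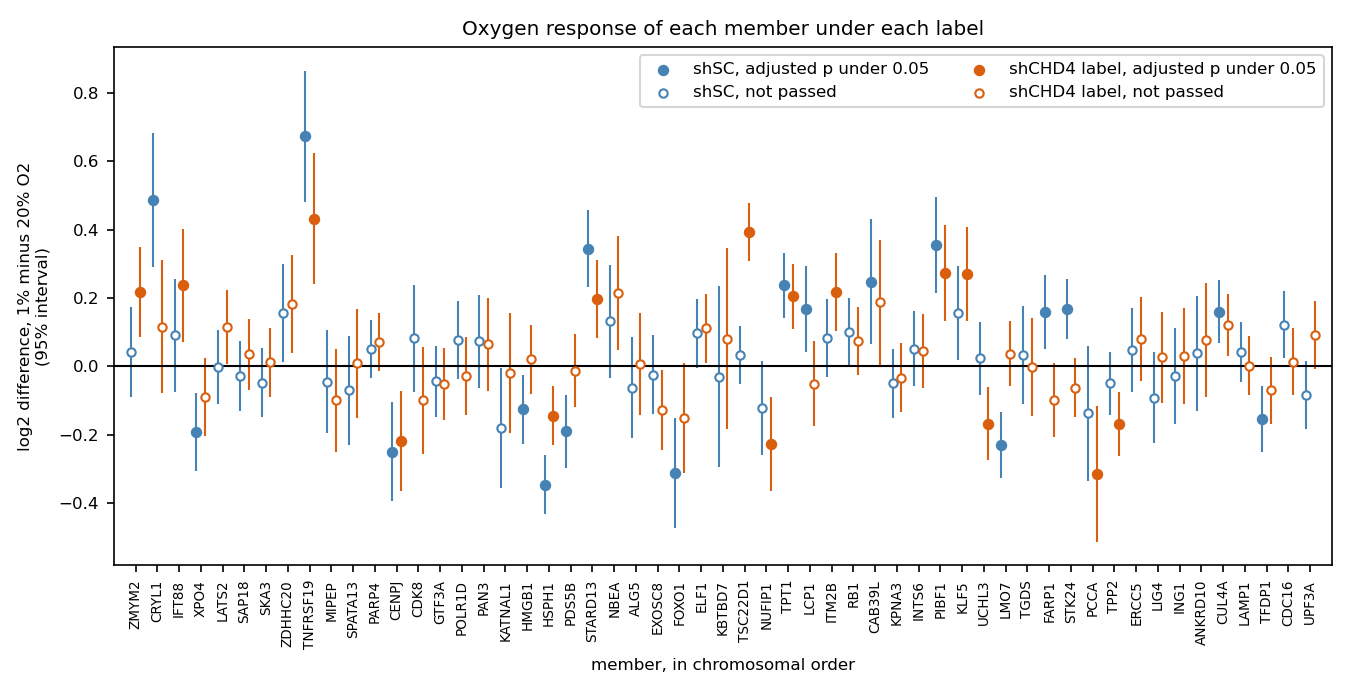
Log2 difference between 1% and 20% O2 for each member in chromosomal order, under shSC (blue) and the shCHD4 label (orange), with 95% intervals from the limma fit; filled points had an adjusted p under 0.05. TNFRSF19 is highest under both labels, at 0.67 and 0.43, and HSPH1 lowest under shSC, at -0.35.

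The promoters of the members with the largest oxygen changes each way are printed to show the start regions behind these values. TNFRSF19 is shown as the largest rise under both labels, HSPH1 and PCCA as the largest falls under shSC and under the shCHD4 label, and PIBF1 because it rose under both labels and shares its start region with DIS3. They are RefSeq sequences of GRCh38.p14, 250 bases before to 50 after an annotated start, at chr13:23570162-23570461 on the plus strand, chr13:31162339-31162638 on the minus strand, chr13:100088843-100089142 on the plus strand and chr13:72781883-72782182 on the plus strand. The deposited table was made on hg19, whose coordinates differ. TNFRSF19 has 2 windows in the RefSeq table, and the one farther upstream is shown. Capitals mark a match to ACGTG or GCGTG, the core of the hypoxia response element, on either strand, or to GAANNTTC, the core of the heat shock element, which reads the same on both strands.
TNFRSF19: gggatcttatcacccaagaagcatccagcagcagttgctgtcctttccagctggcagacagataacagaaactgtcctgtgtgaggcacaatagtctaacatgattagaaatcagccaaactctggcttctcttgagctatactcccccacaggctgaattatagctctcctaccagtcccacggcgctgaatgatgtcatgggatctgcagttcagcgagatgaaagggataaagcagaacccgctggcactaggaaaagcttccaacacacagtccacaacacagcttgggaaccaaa
HSPH1: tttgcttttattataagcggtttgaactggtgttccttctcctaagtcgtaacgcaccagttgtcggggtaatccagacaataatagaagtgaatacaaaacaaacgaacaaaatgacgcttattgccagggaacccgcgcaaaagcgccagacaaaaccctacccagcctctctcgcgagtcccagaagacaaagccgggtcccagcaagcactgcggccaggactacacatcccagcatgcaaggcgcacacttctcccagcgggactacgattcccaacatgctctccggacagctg
PCCA: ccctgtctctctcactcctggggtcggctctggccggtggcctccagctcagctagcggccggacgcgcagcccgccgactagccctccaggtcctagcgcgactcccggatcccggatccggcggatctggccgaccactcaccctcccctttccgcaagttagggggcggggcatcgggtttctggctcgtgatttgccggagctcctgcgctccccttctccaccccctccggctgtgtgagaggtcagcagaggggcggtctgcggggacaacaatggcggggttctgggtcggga
PIBF1: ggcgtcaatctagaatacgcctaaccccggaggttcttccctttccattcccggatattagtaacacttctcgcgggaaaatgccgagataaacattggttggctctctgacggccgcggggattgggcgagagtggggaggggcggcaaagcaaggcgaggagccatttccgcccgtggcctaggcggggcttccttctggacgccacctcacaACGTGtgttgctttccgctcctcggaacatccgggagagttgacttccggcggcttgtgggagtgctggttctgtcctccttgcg

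Of these 4 windows only that of PIBF1 held a match, 1 ACGTG beginning 35 bases before the annotated start. DIS3, a catalytic subunit gene of the RNA exosome whose window overlaps that of PIBF1 by 268 bases, differed by 0.04 at 1% O2 under shSC (adjusted p = 0.561) and by 0.02 under the shCHD4 label (adjusted p = 0.791). The difference between these genes was not tested. In all, 51 of 55 members matched the RefSeq table, with 91 windows. ACGTG or GCGTG occurred in 56 of them, 61.5%, and in 48.4% of all 35116 windows of the table. Median GC content was 67.3% in the member windows and 58.7% in all windows. GAANNTTC occurred in 2.2% of member windows and in 6.77% of all windows. SAP18, PARP4, KBTBD7 and ITM2B had no entry. A match in this short window is a description and shows no binding.

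The oxygen response itself differed between labels in 3 members, 2 with a higher and 1 with a lower response under shCHD4 (background 2.21% and 2.14% of all genes, 4.36% in either direction). TSC22D1 stood at 592 and 597 in shSC at 20% O2 and 605 and 613 at 1% O2, a log2 difference of 0.03 (adjusted p = 0.532), while it rose by 0.39 under the shCHD4 label. The interaction was 0.36 (95% interval 0.24 to 0.48, adjusted p = 0.00107). LMO7 fell by 0.23 under shSC and was 233 and 238 against 241 and 242 under shCHD4, a difference of 0.04 (adjusted p = 0.593), for an interaction of 0.27 (95% interval 0.13 to 0.40, adjusted p = 0.0221). STK24 rose under shSC from 244 and 242 to 279 and 268 and was 381 and 382 against 358 and 373 under shCHD4 (-0.06, adjusted p = 0.303), for an interaction of -0.23 (95% interval -0.35 to -0.11, adjusted p = 0.0323).

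The TSC22D1 call held without each of the 8 libraries, though not without a variance trend (adjusted p = 0.0579). Those of LMO7 and STK24 ended without any 1 of 6 libraries, with adjusted p from 0.0516 to 0.11 for LMO7 and from 0.0575 to 0.192 for STK24. The libraries whose removal kept both calls were shSC 20% O2 replicate 1 and shSC 1% O2 replicate 2.

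Set side by side, the label difference exceeded both oxygen differences in 47 of 55 members. Because the members were chosen with the label difference known, that count describes the choice, and it was not made over all genes. The median absolute difference over the members was 0.76 and 0.75 between labels at 20% and 1% O2, and 0.09 between O2 levels under either label. Over all genes tested the same medians were 0.37 and 0.40 between labels and 0.14 and 0.11 between O2 levels.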

How the data were processed

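Polyadenylated RNA of 8 MDA-MB-231 libraries was used. Per the submitters' processing notes the authors' tools were bcl2fastq 2.17, FastQC 0.11.2, TopHat, Picard 1.127, featureCounts and edgeR, with hg19. The deposited values are named FPKM but are a signal: reads per gene that the authors scaled with a single factor for each library, with no length term. Genes are therefore not ranked by level. Whole reads were recovered for 100% of values (tolerance 0.01 reads). The tests had been chosen for FPKM; limma was kept, and count tests on the reads were alternatives.

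Genes with a mean of at least 1 (12645) were tested in R 4.3.3 with limma 3.58.1 on log2(value + 0.5), with a variance trend and 1 fit of 4 group means, two-sided, with Benjamini-Hochberg adjustment at 0.05 over all genes. Fold changes are on that scale and understate low genes. With 2 libraries a group, the smallest p of an exact permutation test is 0.33. The fit was tested on simulated data. Replicates were separate libraries by their counts, with a chi-square of 2.12 to 4.48 per degree of freedom. Chromosomes and gene order came from RefSeq (GRCh38.p14), matching 17289 names by symbol and 1522 by synonym; 772 of 19583 rows did not match.

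Members, role groups and lists were chosen with earlier results of these data known. Per-library values are given, by rule, for the 5 members highest and the 5 lowest by label, the 4 largest oxygen changes each way under shSC and 3 under the shCHD4 label, interaction calls, the most counted member of each role group, and RB1, LATS2, FOXO1, TPT1, HMGB1 and CDK8. Alternatives were other pseudocounts and filters, no variance trend, quantile normalization, edgeR 4.0.16, DESeq2 1.42.0, a replicate block, centring on the other chromosome 13 genes and leaving out each library. Neighbouring and divergent genes, the limit of 0.3, the heat shock motif and the PIBF1 promoter were chosen after values were seen. The values of 1 role group are not reported here.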

Additional observations from a re-analysis of the deposited data

Results flagged for a closer look

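TSC22D1, LMO7 and STK24 had an oxygen response that differed between the labels by the interaction term of the limma fit. The interaction was 0.36 for TSC22D1, 0.27 for LMO7 and -0.23 for STK24 on the log2 scale. Groups of 2 libraries cannot show which library is the outlying one. Leaving out single libraries kept the TSC22D1 call, while those of LMO7 and STK24 ended without most single libraries. Of all genes tested, 2.21% were called higher and 2.14% lower in the interaction, beside 3.64% and 1.82% of the members.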

How the results depend on the processing

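The median label difference of the members stayed positive under every alternative. It was 0.72 to 0.77 at 20% O2 and 0.74 to 0.77 at 1% O2 without single libraries, 0.85 and 0.84 with quantile normalization, and 0.125 and 0.0642 after centring on the other chromosome 13 genes, which removes the shift by construction. For the other chromosome 13 genes it was 0.65 to 0.71 and 0.73 to 0.77 without single libraries, 0.61 and 0.68 with a pseudocount of 2, 0.74 and 0.80 with quantile normalization, 0.70 and 0.77 with edgeR, 0.70 at 20% O2 with DESeq2, and 0.0403 and 0.0667 after centring. The last 19 members exceeded the first 18 by 0.0662, by 0.0412 with quantile normalization and by 0.0211 to 0.0736 without single libraries. Among the members given per-library values by rule, that centring turned the label differences of CDK8 (-0.21 and -0.45), NUFIP1 (-0.36 and -0.51) and, at 1% O2, STK24 (-0.26) negative. Other members with a step smaller than the shift removed fall below 0 in the same way. Examples are ZMYM2 (0.21 and 0.38 before centring) and XPO4 (0.33 and 0.43). With quantile normalization the O2 difference of TSC22D1 under shSC was -0.0531. Quantile normalization put the median label difference of all genes at 0.06 and 0.05.

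The counts of members changed by oxygen moved more. Under shSC, 7 to 13 rose and 3 to 9 fell without single libraries, and 5 fell without a variance trend. Under the shCHD4 label, 1 to 12 rose and 0 to 6 fell without single libraries. Without a variance trend 3 rose and 1 fell, and 3 fell with no filter on low values and with DESeq2. In the interaction, 1 to 3 were higher and 0 to 2 lower without single libraries. Without a variance trend none was higher or lower, with no filter 1 and 0, with centring 1 and 2. The number lower was 2 with a pseudocount of 2, with a mean of at least 5 and with edgeR, and 0 with quantile normalization.

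The replicate numbers do not pair the libraries by any label. Deviations of same-numbered libraries correlated at -0.08 across genes between the shSC groups and at -0.12 between the shCHD4 groups, and at 0.12 between the labels at 20% O2 and 0.07 at 1% O2. With a replicate block, 11 rose and 9 fell under shSC, 10 rose and 6 fell under the shCHD4 label, and 2 were higher and 1 lower in the interaction.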
